A study of Mus musculus with 20 samples.

Results

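DNA replication genes were examined in bone marrow neutrophils as 43 genes of the replication machinery, taken by symbol from the gene counts. All 43 were found among the 24421 genes listed, and all 43 had enough reads to enter the 14030 genes tested. They fell by role into 6 subunits of the MCM helicase, 5 origin licensing genes, 7 helicase activation factors and 4 subunits of DNA polymerase alpha-primase. Further roles were 5 subunits of DNA polymerases delta and epsilon, 5 sliding clamp and clamp loader genes and 3 subunits of RPA. The rest were 2 Okazaki fragment joining enzymes, 4 nucleotide supply enzymes and 2 maintenance methylation genes.

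Replication begins at origins, where the origin recognition complex, *Cdc6* and *Cdt1* load the MCM helicase onto DNA, and kinases with *Cdc45* and the GINS complex then turn the helicase on. Primase and the replicative polymerases copy the strands on a clamp made of *Pcna*, while ribonucleotide reductase and thymidine enzymes supply the nucleotides. In the bone marrow, granulocyte precursors up to the myelocyte stage divide, and the band and segmented neutrophils that follow do not, so transcripts of these genes mark the dividing part of the lineage.

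The 20 libraries, 1 per female mouse, form 4 groups of 5, with WT and *Bmal1 Mye-/-* mice each either left untreated or given IMQ. IMQ is imiquimod, an agonist of Toll-like receptor 7, put on the ears as a cream 3 times a week for 6 weeks from an age of 8 to 10 weeks. *Bmal1 Mye-/-* mice have floxed alleles of the clock gene *Bmal1* and a Cre driven by *Lyz2*, which is active in granulocytes, monocytes and macrophages. The WT mice were bought C57BL/6J animals and the *Bmal1 Mye-/-* mice a colony of their own with Cre, so that *Bmal1*, Cre and origin cannot be told apart in any comparison of genotypes. Neutrophils were enriched by magnetic depletion of other cells and not by a sort. The paper states that their purity was checked by flow cytometry and was high, without a value for each library. Each library is bulk RNA, in which fewer dividing cells and less replication RNA per cell cannot be told apart.

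Each library held between 30782166 and 92613500 reads on genes, and each of the 43 genes had between 44 and 22556 reads in every library. Levels are given as CPM, the read count divided by a library size that is scaled by TMM factors, which lay between 0.854 and 1.38. Comparisons used edgeR's quasi-likelihood test in 1 model of the 4 groups, with Benjamini-Hochberg adjustment over the 14030 genes, and "called" means an adjusted p under 0.05. *Arntl*, the symbol of *Bmal1* in the files, had medians of 1.39 CPM in WT and 0.707 in *Bmal1 Mye-/-* without IMQ and of 1.04 and 0.532 with it, and neither genotype difference was called (log2 fold change −0.90, SE 0.384, adjusted p = 1.00 without IMQ and −0.65, SE 0.384, adjusted p = 0.305 with IMQ). Its ranges in the 2 genotypes overlapped. With IMQ, *Bmal1 Mye-/-* replicate 1 was at 1.52 CPM, above every IMQ-treated WT mouse except replicate 3 (1.87 CPM). The other IMQ-treated *Bmal1 Mye-/-* mice were lower, of which replicate 5 still lay above IMQ-treated WT replicate 1 (0.562 CPM). The whole-gene count does not separate the floxed exon, and the genotypes stand here as labelled. The 9 neutrophil markers found in the files, with *S100a8* and *S100a9* among them, summed to 69375 to 149716 CPM. There were 2 libraries with TMM factors above 1.1, IMQ-treated WT replicate 3 (1.16) and IMQ-treated *Bmal1 Mye-/-* replicate 1 (1.38). Counts of calls that rest on them are given with and without them, and values of single genes only in part.

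The promoters of the 43 genes are shown because E2F factors, which drive S phase transcription, bind a short consensus near the starts of many replication genes. RefSeq promoter windows (build GRCm38.p6, 250 bases before to 50 after the start, 300 in all) were matched for 35 of the 43 genes. An E2F consensus, TTTCCCGC, TTTCGCGC, TTTGCCGC or TTTGGCGC on either strand, lay in a window of 16 of these 35 genes (45.7%), against 704 of 27025 genes with a window (2.605%). The 16 were *Mcm3*, *Mcm5*, *Mcm6*, *Mcm7*, *Orc1*, *Cdc6*, *Cdt1*, *Gins3*, *Pola1*, *Pold1*, *Pold3*, *Pole2*, *Rfc3*, *Lig1*, *Uhrf1* and *Dnmt1*, and none of the 3 RPA or 4 nucleotide supply genes held one. A site in each of 8 genes that the results below return to is printed 5′ to 3′ on the gene's strand with the consensus in capitals. In *Mcm5* (chr8:75109310-75109413, plus strand) 2 overlapping sites form 1 run, and in *Dnmt1* (chr9:20952789-20952873, minus strand) and *Pola1* (chrX:93632240-93632339, minus strand) the printed site also lies before the start. The same *Dnmt1* window, at a RefSeq start inside the gene, holds another match, TTTGGCGC at position 34 after that start, which is not printed. In *Pold3* (chr7:100121468-100121495, minus strand), *Pold1* (chr7:44548766-44548786, minus strand), *Cdt1* (chr8:122568037-122568064, plus strand), *Pole2* (chr12:69228163-69228190, minus strand) and *Lig1* (chr7:13278842-13278869, plus strand) it lies after the start.
Mcm5: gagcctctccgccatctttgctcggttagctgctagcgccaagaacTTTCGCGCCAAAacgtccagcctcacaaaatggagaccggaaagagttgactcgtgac
Dnmt1: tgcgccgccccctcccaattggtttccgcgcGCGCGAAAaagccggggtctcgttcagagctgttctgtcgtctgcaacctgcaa
Pola1: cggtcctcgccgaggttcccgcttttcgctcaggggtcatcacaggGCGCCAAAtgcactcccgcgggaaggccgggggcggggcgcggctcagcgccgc
Pold3: agcgaagctgTTTCCCGCcggcgggagc
Pold1: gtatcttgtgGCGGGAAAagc
Cdt1: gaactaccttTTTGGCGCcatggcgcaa
Pole2: gtcggcggtgGCGCCAAAtcgcgaacat
Lig1: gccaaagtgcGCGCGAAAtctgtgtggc

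In untreated mice the machinery was expressed at low to moderate levels in neutrophils of both genotypes. Together the 43 genes took 0.0665% to 0.119% of the counted reads in untreated WT and 0.0637% to 0.117% in untreated *Bmal1 Mye-/-*. Per kilobase of exon, so that genes of different length can be compared, untreated WT levels were highest for the clamp *Pcna* (23.6 CPM per kilobase), the ribonucleotide reductase subunit *Rrm2* (19.2), the GINS subunit *Gins4* (14.9) and *Mcm5* (13.4), and lowest for the catalytic subunits *Pola1* (0.904) and *Pole* (0.809) and the origin recognition subunit *Orc1* (0.711). The spread between mice was moderate without IMQ, with a median coefficient of variation over the 43 genes of 26.3% in WT and 21.9% in *Bmal1 Mye-/-*. With IMQ it was 74.7% in WT and 42.3% in *Bmal1 Mye-/-*.

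The genes moved together from mouse to mouse in every group. Untreated WT replicate 2 was the highest of its group in 32 of the 43 genes and replicate 4 the lowest in 32, and in untreated *Bmal1 Mye-/-* replicate 5 was highest in 31 and replicate 4 lowest in 38. Among IMQ-treated WT, replicate 3 was highest in 42 genes and replicate 4 lowest in 32, and among IMQ-treated *Bmal1 Mye-/-*, replicate 1 was highest in 37 and replicate 2 lowest in 33. Set against the untreated WT mean of each gene, the median over the 43 genes was 1.01-fold, 1.27-fold, 2.83-fold, 0.567-fold and 0.672-fold in the 5 IMQ-treated WT mice. It was 3.28-fold, 1.30-fold, 1.63-fold, 1.46-fold and 2.55-fold in the 5 IMQ-treated *Bmal1 Mye-/-* mice, and between 0.680-fold and 1.25-fold in the 10 untreated mice. The treated WT mice therefore lay on both sides of the untreated ones, and the treated *Bmal1 Mye-/-* mice all lay above the highest of them.

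**Figure D1:**
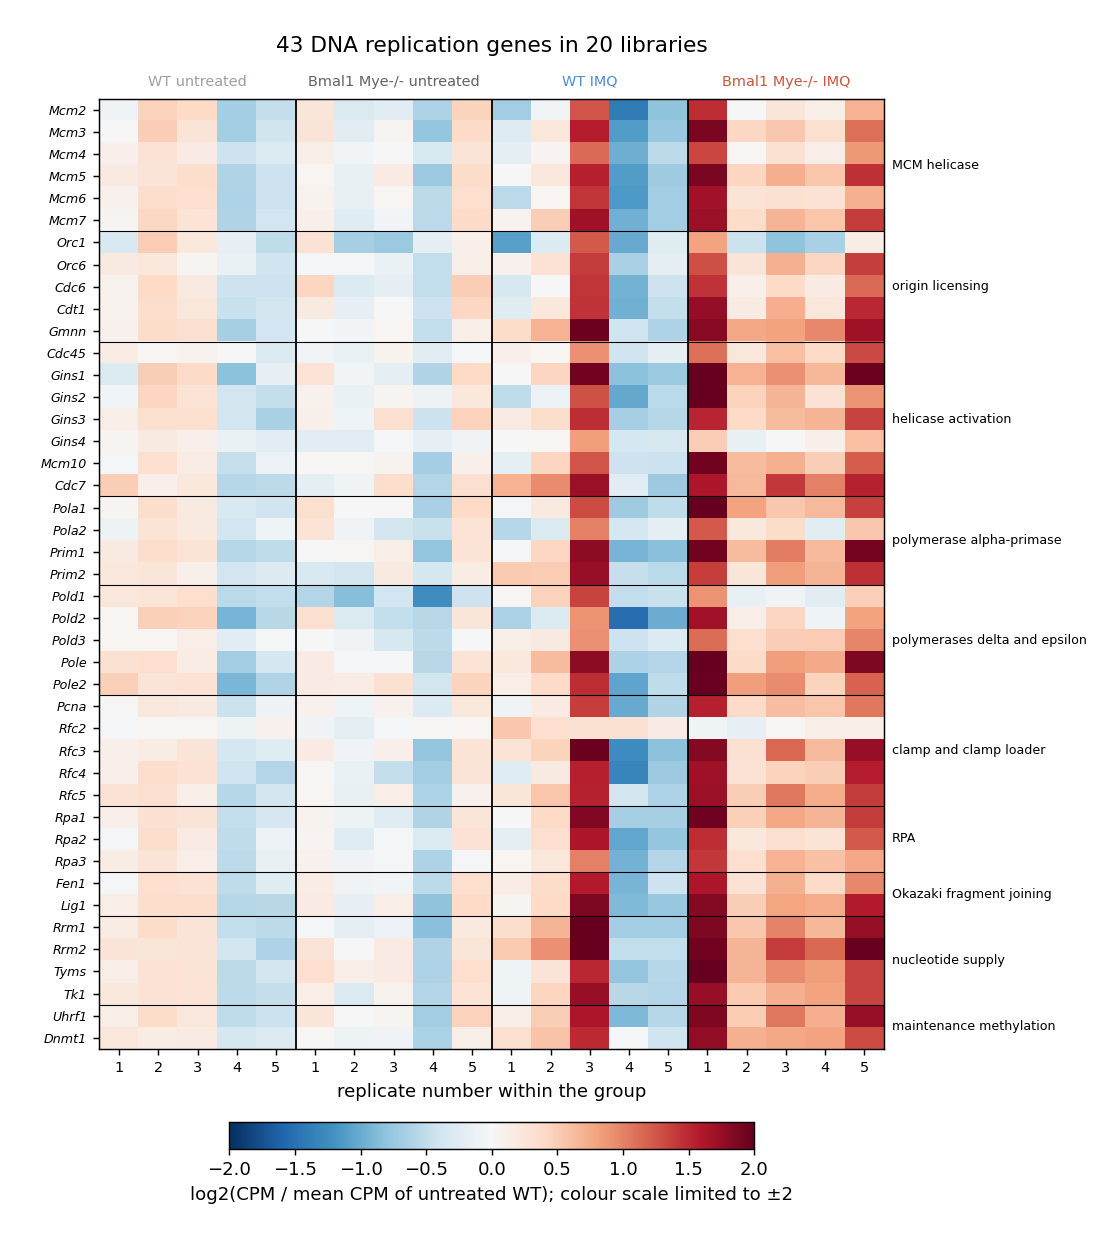
Heat map of the 43 genes (rows, by role) in the 20 libraries (columns, by group and replicate), coloured by log2 of the CPM over the untreated WT mean of that gene. IMQ-treated WT replicate 3 and IMQ-treated *Bmal1 Mye-/-* replicates 1 and 5 are red over almost all rows, IMQ-treated WT replicates 4 and 5 are mostly blue, and *Rfc2* stays near white except in IMQ-treated WT.

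IMQ raised many replication genes in *Bmal1 Mye-/-* neutrophils. In IMQ-treated against untreated *Bmal1 Mye-/-*, 24 of the 43 genes were called higher and 0 lower, where 14.4% of all genes tested were called higher and 9.04% lower. All 43 were fitted higher, by a median of 1.01 on the log2 scale (2.02-fold) against 0.02 over all genes, with a range from 0.05 for *Rfc2* to 1.53 for *Rrm2*. At an unadjusted p under 0.05 there were 34 genes, all higher (22.4% of all genes). In 28 genes every treated mouse lay above every untreated one and in 0 below, which held for 10.8% and 9.31% of all genes. The called genes belonged to all roles except Okazaki fragment joining.

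The count rested on the number and choice of mice. Without untreated *Bmal1 Mye-/-* replicates 1, 2 and 4 it was 14, 9 and 5, where 9.08%, 9.41% and 7.1% of all genes were called higher. Without IMQ-treated *Bmal1 Mye-/-* replicates 1 and 5 it was 8 and 6, beside 9.93% and 8.1% of all genes. The 8 genes called without replicate 1 were *Gmnn*, *Cdc45*, *Mcm10*, *Cdc7*, *Pold3*, *Rfc5*, *Rrm2* and *Dnmt1*, with a median over the 43 of 0.84. Calls of other genes given below were lost without that library. The count was 37, beside 19.2%, without IMQ-treated WT replicate 3, which is in neither group but shares the estimate of spread. No gene was called lower in any of these fits, and 42 or 43 genes were fitted higher. Without both libraries of high TMM factor it was 30 (17.3% of all genes), and with mice of the same number taken as pairs it was 28 (13.3%), or 40 (13.9%) when only these 2 groups were fitted. *Cdc45*, *Mcm10*, *Pold3*, *Rfc5* and *Dnmt1* were called in each of the 30 settings.

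**Figure D2:**
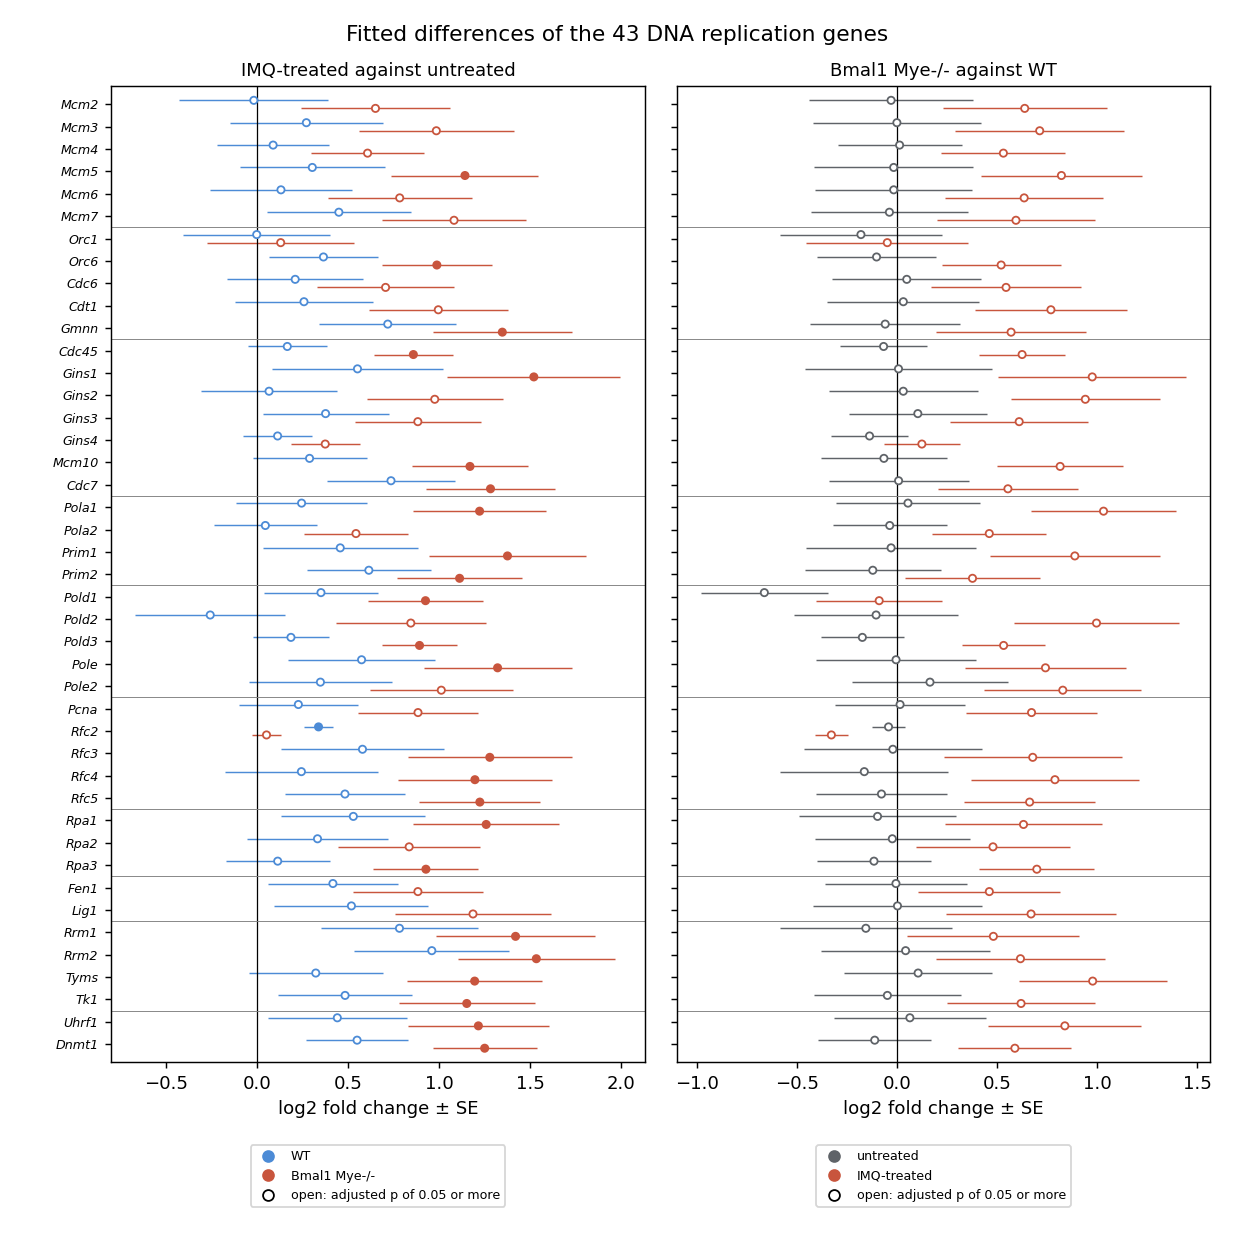
Fitted log2 fold changes (points, filled when called) with standard errors (bars) of the 43 genes, for IMQ-treated against untreated in each genotype (left) and for the genotype difference without and with IMQ (right). In *Bmal1 Mye-/-* 24 points are filled on the right of 0, in WT only *Rfc2* is filled, and no genotype difference is.

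*Dnmt1* (chr9:20907209-20959888 of mm10), the methyltransferase that copies DNA methylation onto the new strand, had the smallest p. It was at 86.5, 79.4, 81.8, 55.0 and 92.9 CPM in the 5 untreated *Bmal1 Mye-/-* mice and at 293, 139.6, 147, 150.0 and 212 in the 5 treated ones. The groups did not overlap, and the log2 fold change was 1.25 (SE 0.286, adjusted p = 0.00832 by edgeR). *Uhrf1*, which brings the enzyme to newly copied DNA, was also called, at 1.22 (SE 0.386, adjusted p = 0.0319 by edgeR).

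The polymerase genes rose in most of their subunits. *Pold3* (chr7:100082111-100121565), an accessory subunit of polymerase delta, was at 19.2, 18.3, 15.5, 13.4 and 19.2 CPM in untreated and 42.0, 24.4, 27.1, 27.3 and 38.0 CPM in treated *Bmal1 Mye-/-* mice, with no overlap. Its log2 fold change was 0.89 (SE 0.208, adjusted p = 0.00894 by edgeR). Of the 5 polymerase delta and epsilon genes the catalytic subunits *Pold1* and *Pole* were called as well, and *Pold2* (0.84, adjusted p = 0.134 by edgeR) and *Pole2* (1.01, adjusted p = 0.0668 by edgeR) were not. In the alpha-primase complex, which makes the primers, *Pola1*, *Prim1* and *Prim2* were called, 3 of 4. *Pola1*, the catalytic subunit, went from 9.94, 7.92, 7.94, 5.07 and 10.5 CPM in untreated to 37.8, 13.9, 11.5, 12.5 and 20.6 CPM in treated mice, a log2 fold change of 1.22 (SE 0.365, adjusted p = 0.0247 by edgeR). The treated group again lay wholly above the untreated one, with replicate 1 far above the other 4. Without replicate 1 the log2 fold change of *Pola1* was 0.84, and it was not called. *Prim2*, the large primase subunit and the most abundant of the complex in CPM, was at 8.75 ± 1.71 CPM in untreated and 18.9 ± 6.39 CPM in treated *Bmal1 Mye-/-* mice (SD, n = 5 each).

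Fewer calls fell on the helicase ring than on the factors that start it. Of the 6 MCM subunits, which form the ring that unwinds DNA, only *Mcm5* was called, although all 6 were fitted higher, from 0.61 (*Mcm4*) to 1.14 (*Mcm5*). *Mcm5* (chr8:75109569-75128439) was at 54.9, 48.1, 60.1, 31.9 and 68.8 CPM in untreated and at 197, 72.2, 88.5, 78.2 and 146 CPM in treated mice (SE 0.404, adjusted p = 0.0474 by edgeR). The median log2 fold change was 0.88 for the MCM genes and 0.98 for the activation factors, and the difference between these roles was not tested. Without IMQ-treated WT replicate 3, *Mcm3*, *Mcm4*, *Mcm5*, *Mcm6* and *Mcm7* were called, as were all 7 activation factors. Of the 7 activation factors 4 were called, *Cdc45*, *Gins1*, *Mcm10* and *Cdc7*. *Cdc45* (chr16:18780447-18811987), which joins MCM and GINS in the working helicase, was at 27.8, 26.4, 30.3, 24.98 and 28.0 CPM in untreated and 61.7, 33.7, 43.5, 38.0 and 72.0 CPM in treated mice, without overlap (0.86, SE 0.218, adjusted p = 0.0128 by edgeR). The untreated mice had an SD of 1.98 CPM around a mean of 27.5 (n = 5). *Mcm10*, a factor that helps the helicase start, rose by 1.17 on the log2 scale (SE 0.317, adjusted p = 0.0164 by edgeR), and *Cdc7*, the kinase that phosphorylates MCM, by 1.28 (SE 0.355, adjusted p = 0.0179 by edgeR). *Gins4* was the least changed of this role, at 18.2 ± 1.09 CPM in untreated and 23.6 ± 5.36 CPM in treated mice (SD, n = 5 each; 0.37, adjusted p = 0.151 by edgeR).

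Of the 5 origin licensing genes *Orc6* and the licensing inhibitor *Gmnn* were called. *Orc6*, a subunit of the origin recognition complex, was at 7.33 ± 1.08 CPM in untreated and 14.5 ± 5.08 CPM in treated mice (0.99, SE 0.301, adjusted p = 0.0268 by edgeR). *Gmnn*, geminin, which holds *Cdt1* in check so that origins are not loaded again, was at 10.2 ± 1.56 and 25.9 ± 9.38 CPM (1.35, SE 0.382, adjusted p = 0.0198 by edgeR). *Cdt1* itself, at 16.9 ± 3.70 and 33.7 ± 17.0 CPM, did not pass (1.00, SE 0.382, adjusted p = 0.0639 by edgeR), nor did *Orc1* (0.13, adjusted p = 0.832 by edgeR) (SD, n = 5 for each mean).

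All 4 nucleotide supply enzymes were called, with *Rrm2* the largest change of the 43 genes. *Rrm2* (chr12:24708241-24714146), the small subunit of ribonucleotide reductase, was at 63.7, 53.1, 59.5, 34.9 and 63.1 CPM in untreated and 203, 85.7, 141, 118 and 247 CPM in treated mice, with no overlap. Its log2 fold change was 1.53 (SE 0.431, adjusted p = 0.0190 by edgeR), a 2.90-fold difference. *Rrm1*, *Tyms* and *Tk1*, the large reductase subunit, thymidylate synthase and thymidine kinase, rose by 1.42, 1.19 and 1.15.

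Among the clamp and clamp loader genes *Rfc3*, *Rfc4* and *Rfc5* were called, *Pcna* was not (0.88, adjusted p = 0.0567 by edgeR) and *Rfc2* hardly moved. *Rfc5*, 1 of the small subunits of the complex that opens the clamp, went from 9.80 ± 1.85 to 22.9 ± 7.83 CPM (SD, n = 5 each; 1.22, SE 0.333, adjusted p = 0.0167 by edgeR). Of the 3 RPA subunits, which coat single-stranded DNA, *Rpa1* and *Rpa3* were called, and *Rpa1*, the largest and most abundant in CPM, went from 21.2 ± 4.56 to 50.8 ± 23.1 CPM (SD, n = 5 each). The ligase *Lig1*, which seals Okazaki fragments, went from 36.1 ± 10.2 to 82.2 ± 34.3 CPM (SD, n = 5 each) and missed the threshold (1.19, SE 0.428, adjusted p = 0.0509 by edgeR), although its groups did not overlap. Among the 16 genes with an E2F consensus 7 were called and the median was 1.00, and among the 19 with a window but no consensus 13 were called and the median was 1.15 (log2 fold changes).

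**Figure D3:**
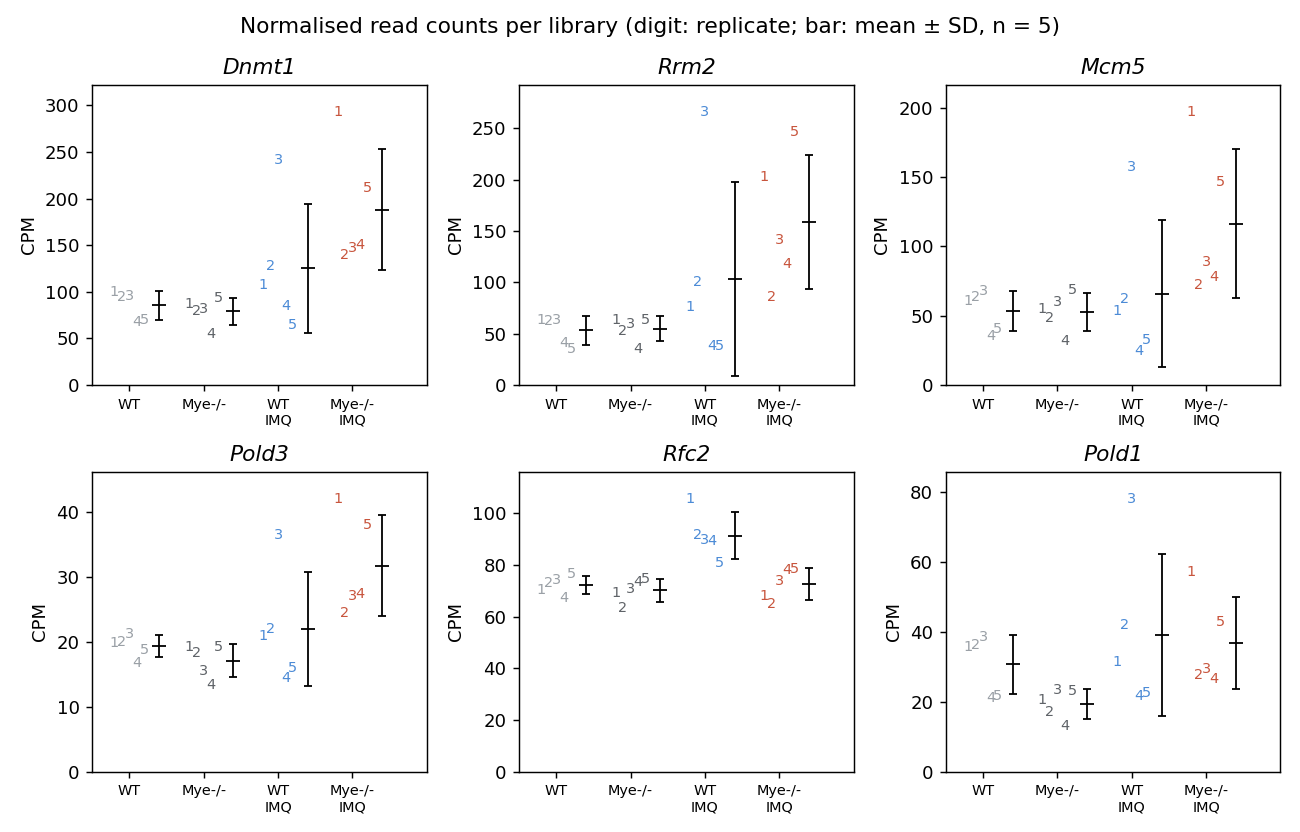
CPM of 6 members in each library (digits are replicate numbers) with the mean and SD of the 5 mice of a group (black bars). *Dnmt1*, *Rrm2*, *Mcm5* and *Pold3* lie higher in all 5 IMQ-treated *Bmal1 Mye-/-* mice than in untreated *Bmal1 Mye-/-* mice, *Rfc2* is highest in IMQ-treated WT, and IMQ-treated WT replicate 3 stands apart in all panels but that of *Rfc2*.

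In WT the same treatment gave 1 called gene. In IMQ-treated against untreated WT, 1 of the 43 genes was called higher and 0 lower, where 2.34% of all genes tested were called higher and 1.6% lower, and 3 and 0 had an unadjusted p under 0.05 (12.3% and 9.98% of all genes). Of the 43, 40 were fitted higher, with a median log2 fold change of 0.34 against 0.03 over all genes. The median turned to −0.17, with 8 fitted higher, when IMQ-treated WT replicate 3 was left out.

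The called gene was *Rfc2* (chr5:134581366-134601805), a small subunit of the clamp loader and the most abundant of its role in CPM. It was at 70.4, 73.1, 74.1, 67.2 and 76.5 CPM in untreated and 105, 91.4, 89.4, 89.3 and 80.7 CPM in treated WT mice, without overlap and all higher (3.11% of all genes). No member lay wholly lower (3.31% of all genes). The log2 fold change was 0.34 (SE 0.0817, adjusted p = 0.0299 by edgeR), and the call was lost in 9 of the 20 fits without 1 library, each time with an untreated WT mouse or IMQ-treated WT replicates 1 to 4 left out. An exon of *Rfc2* overlaps one of *Lat2* on the opposite strand, and the strand setting of the counts is not given in the sources used here. *Lat2*, an adaptor protein of myeloid and B cells, was fitted higher with IMQ in both genotypes (1.12, adjusted p = 0.0659 in WT and 1.35, adjusted p = 0.0126 in *Bmal1 Mye-/-* by edgeR), and its part in the *Rfc2* count was not tested.

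For the other members the treated WT mice spread widely around the untreated ones. *Rrm2*, with the highest log2 fold change in WT, was at 63.8, 62.8, 63.6, 41.3 and 34.9 CPM in untreated and at 76.2, 100.2, 266, 37.7 and 38.0 CPM in treated mice, so that 2 of the treated mice were among the lowest and 1 was far above the rest. It did not pass (0.96, SE 0.425, adjusted p = 0.188 by edgeR), and the value was 0.23 without replicate 3. *Cdc7* was at 9.67 ± 3.02 CPM in untreated and 16.1 ± 10.4 CPM in treated WT (SD, n = 5 each; 0.74, adjusted p = 0.224 by edgeR). *Pold2*, an accessory subunit of polymerase delta, had the lowest value, −0.26 (adjusted p = 0.760 by edgeR), with 6.15 ± 2.42 and 5.14 ± 3.68 CPM (SD, n = 5 each).

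Without IMQ none of the 43 genes was called between the genotypes. In untreated *Bmal1 Mye-/-* against untreated WT, 0 of the 43 were called in either direction by edgeR and 0 by DESeq2 (0.107% higher and 0.0998% lower over all genes by edgeR), and the median log2 fold change was −0.03 against −0.00 over all genes. At an unadjusted p under 0.05 there was 1 gene, *Pold1*, which was lower (0.599% of all genes). In 0 genes did the groups not overlap (0.791% higher and 0.727% lower over all genes). *Pold1* (chr7:44532746-44548849), the catalytic subunit of polymerase delta, was at 35.7, 36.2, 38.5, 21.1 and 21.8 CPM in untreated WT and 20.5, 17.0, 23.4, 12.97 and 23.0 CPM in untreated *Bmal1 Mye-/-*, with the 2 lowest WT mice inside the range of the other group. The log2 fold change was −0.66 (SE 0.317, adjusted p = 1.00 by edgeR). Of the rest, the values ran from −0.18 to 0.16, where *Pole2* was highest (0.16, SE 0.393), and *Pold3* (−0.17, SE 0.207) and *Gins4* (−0.14, SE 0.191) came next to *Pold1* by p.

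With IMQ the genes were fitted higher in *Bmal1 Mye-/-* than in WT, but none was called. In the treated *Bmal1 Mye-/-* mice set against treated WT, 40 of 43 were fitted higher with a median log2 fold change of 0.63 (1.55-fold) against 0.03 over all genes. By edgeR 0 were called in either direction (0.185% higher and 0.107% lower over all genes), and by DESeq2 0 were called higher and 1 lower. At an unadjusted p under 0.05 there were 10 higher and 1 lower, against 11.1% and 8.80% of all genes. The mean was highest in IMQ-treated *Bmal1 Mye-/-* for 40 genes, in IMQ-treated WT for *Pold1* and *Rfc2*, and in untreated WT for *Orc1*.

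This comparison turned on IMQ-treated WT replicate 3. Without it, 39 genes were called higher and 1 lower by edgeR, with a median log2 fold change of 1.22, where 13.5% of all genes were called higher. Leaving out IMQ-treated *Bmal1 Mye-/-* replicate 1 as well gave 33 called higher, beside 5.45% of all genes, and a median of 0.99, and leaving out that library alone gave 0 and a median of 0.46. Replicate 3 carries the same label as the other 4 mice, and the value with all 5 stands as the result.

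*Cdc45*, at 30.7, 29.7, 54.0, 21.8 and 25.2 CPM in IMQ-treated WT and at 61.7, 33.7, 43.5, 38.0 and 72.0 CPM in IMQ-treated *Bmal1 Mye-/-*, had the smallest p of the genes fitted higher (0.63, SE 0.217, adjusted p = 0.199 by edgeR). Replicate 3 alone of the WT mice reached into the *Bmal1 Mye-/-* range. *Pola1* had the highest log2 fold change, 1.03 (SE 0.363, adjusted p = 0.202 by edgeR), from 7.78, 9.14, 19.8, 4.88 and 5.59 CPM in WT. Without replicate 3, *Cdc45* was at 0.90 (adjusted p = 0.0119 by edgeR) and *Pola1* at 1.50 (adjusted p = 0.0130 by edgeR).

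*Rfc2* went the other way. It was at 68.0, 64.8, 73.9, 78.0 and 78.5 CPM in IMQ-treated *Bmal1 Mye-/-*, all below the lowest IMQ-treated WT mouse at 80.7, as was the case for 0.442% of all genes. The log2 fold change was −0.33 (SE 0.0817, adjusted p = 0.122 by edgeR). It was called lower by DESeq2 (adjusted p = 0.00760), without IMQ-treated WT replicate 3 (adjusted p = 0.0198 by edgeR) and without IMQ-treated *Bmal1 Mye-/-* replicate 4 (log2 fold change −0.35 by edgeR).

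The effect of IMQ was not shown to differ between the genotypes. The interaction, the log2 fold change with IMQ in *Bmal1 Mye-/-* minus that in WT, was called for 0 of the 43 genes and for 0 of all 14030 by edgeR, and for 0 members by DESeq2. It was fitted above 0 for 42 of 43, with a median of 0.67 against 0.01 over all genes. An unadjusted p under 0.05 was reached by 2 genes above 0, *Pold3* (0.71, SE 0.293) and *Cdc45* (0.69, SE 0.306), and 1 below, *Rfc2* (−0.29, SE 0.116), each with an adjusted p of 0.640 by edgeR, where 2.81% and 2.33% of all genes did so. The highest value was that of *Pold2*, 1.103 (SE 0.582). Without IMQ-treated WT replicate 3 the median was 1.26, and 41 genes above 0 had an unadjusted p under 0.05, as did 16.2% of all genes. Without both libraries of high TMM factor the median was 1.02 with 40 such genes, beside 12.1% of all genes, and 0 were called in either fit. The 3 comparisons that involve IMQ-treated *Bmal1 Mye-/-* share its 5 libraries, so their values are not independent, and each group likewise enters 2 of the pairwise comparisons.

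**Figure D4:**
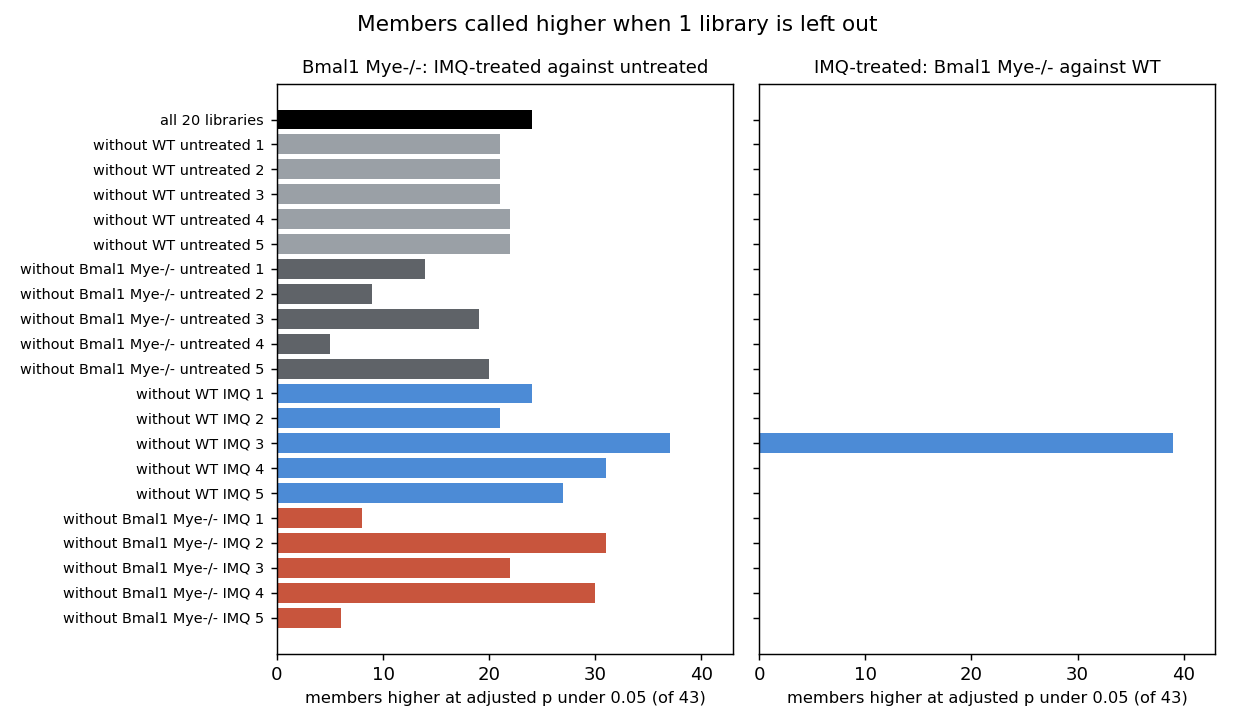
Number of the 43 genes called higher (adjusted p under 0.05, edgeR) with all 20 libraries and with each library left out, for IMQ-treated against untreated *Bmal1 Mye-/-* (left) and for *Bmal1 Mye-/-* against WT with IMQ (right). The left count runs from 5 to 37 around 24, and the right count is 0 except for 39 without IMQ-treated WT replicate 3.

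Other genes of replication, 46 that act in its control, in chromatin assembly and in fork protection, were tested in the same fits. In *Bmal1 Mye-/-*, IMQ-treated against untreated, 27 were called higher and 1 lower, with a median log2 fold change of 0.87. Over all genes 14.4% were called higher and 9.04% lower there, with a median of 0.02. *Cdk2*, a kinase that drives entry into S phase, and *E2f7*, a repressor of E2F targets, had the smallest p there (0.80, adjusted p = 0.00526 and 2.08, adjusted p = 0.00669 by edgeR). In WT 2 were called higher and 0 lower, *E2f2*, an activator of E2F targets (0.59, adjusted p = 0.0193 by edgeR), and *Mcmbp*, an MCM binding protein (0.39, adjusted p = 0.0213 by edgeR), with a median of 0.41. Over all genes 2.34% were called higher and 1.6% lower in WT, with a median of 0.03. *E2f2* was at 295.6 to 309 CPM in untreated and 389 to 493 CPM in treated WT. Between the genotypes and in the interaction 0 were called, with the smallest p for *Rfc1* and *Dck* without IMQ (−0.15 and 0.33, adjusted p = 1.00 by edgeR), *Cdc25a* and *Pole4* with IMQ (0.67 and 0.77, adjusted p = 0.197 and 0.207 by edgeR) and *Pole4* and *Rfc1* in the interaction (0.91 and 0.32, adjusted p = 0.640 by edgeR).

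Genes of mitosis, the step after replication, also rose with IMQ in *Bmal1 Mye-/-*, but did not follow the 43 genes in every mouse. Of 18 mitosis genes, 18 were called higher with IMQ in *Bmal1 Mye-/-* (median log2 fold change 1.82) and 1, the kinetochore gene *Cenpf*, in WT (median 1.09), and 0 between the genotypes. Over all genes 14.4% were called higher with IMQ in *Bmal1 Mye-/-* and 2.34% in WT. All 18 were fitted higher in WT, where the median of the 43 genes was 0.34. Their summed level was 578 to 966 CPM in untreated WT, 474 to 881 in untreated *Bmal1 Mye-/-*, 590 to 3423 in IMQ-treated WT and 1621 to 3734 in IMQ-treated *Bmal1 Mye-/-*, and the highest in IMQ-treated WT was again replicate 3. In IMQ-treated WT replicates 1 and 4 it was 1566 and 811 CPM. The median of the 43 genes there was 1.01-fold and 0.567-fold of the untreated WT mean.

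Several measures stood apart in the libraries where the 43 genes were highest. IMQ-treated WT replicate 3 and IMQ-treated *Bmal1 Mye-/-* replicates 1 and 5 had 6.34%, 6.50% and 5.75% of reads not uniquely aligned, against 4.37% to 5.12% in the other 17. Their 9 neutrophil markers summed to 97967, 69375 and 103458 CPM, against 117149 to 149716 CPM in the other 17. Erythroid markers (7 of 7 present, all above 0 in every library) summed to 599 and 518 CPM in IMQ-treated WT replicate 3 and IMQ-treated *Bmal1 Mye-/-* replicate 5 and to 91.8 in IMQ-treated *Bmal1 Mye-/-* replicate 1, and IMQ-treated WT replicate 4, where 32 members were lowest, had 476. Monocyte markers (6 of 6) summed to 1522 CPM in IMQ-treated *Bmal1 Mye-/-* replicate 1 and to 112 to 554 in the other 19. In IMQ-treated *Bmal1 Mye-/-* replicates 2 to 5 they summed to 554, 146, 250.4 and 112 CPM, against 267 to 366 in untreated *Bmal1 Mye-/-*. With IMQ in *Bmal1 Mye-/-* 4 of the 6 were called higher, although replicates 3, 4 and 5 lay below every untreated *Bmal1 Mye-/-* mouse in this sum. Granule genes of promyelocytes (5 of 5), an early dividing stage, summed to 185 to 1160 CPM in untreated WT and 366 to 945 in untreated *Bmal1 Mye-/-*. With IMQ they summed to 112 to 748 CPM in WT and to 1668, 576, 1086, 250.5 and 419 in *Bmal1 Mye-/-*. In any comparison 0 of the 5 were called. With IMQ all 5 were fitted higher in *Bmal1 Mye-/-* (median log2 fold change 1.04) and 2 in WT (median −0.45). Between the IMQ-treated genotypes all 5 were fitted higher in *Bmal1 Mye-/-* (median 1.11), and the interaction median was 1.18. Stem and progenitor markers (6 of 6) summed to 11.5 to 38.6 CPM over all libraries, B-lineage markers (8 of 8) to 4.88 to 25.7, T and NK markers (5 of 6 found) to 6.04 to 24.4, eosinophil markers (5 of 5) to 17.3 to 186 and basophil and mast cell markers (5 of 5) to 1.92 to 15.4. By edgeR, IMQ in *Bmal1 Mye-/-* also gave 1 neutrophil (*Csf3r*), 2 B-lineage, 1 T and NK and 1 eosinophil marker called lower and 1 basophil and mast cell marker higher, IMQ in WT 1 erythroid marker higher and 1 eosinophil marker lower, and the IMQ-treated genotypes differed in 2 eosinophil markers. *Pax5* was at 0 in 6 libraries and *Cd3e* in 4. *Arntl* was the highest of its group in IMQ-treated WT replicate 3 (1.87 CPM) and in IMQ-treated *Bmal1 Mye-/-* replicate 1 (1.52 CPM). The part of these cells, of depth and of alignment in the levels of the 43 genes was not tested.

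**Figure D5:**
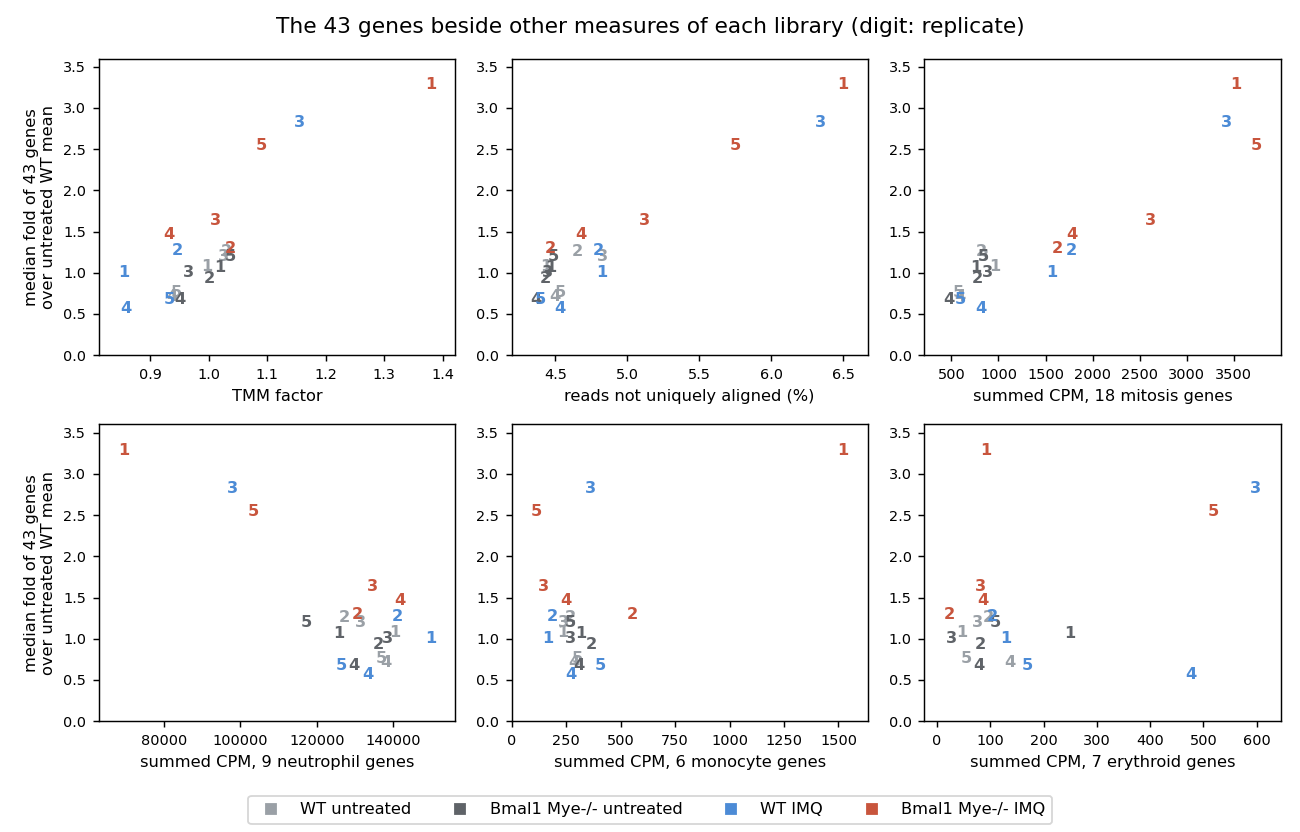
Median fold of the 43 genes over the untreated WT mean (vertical axis) in each library against its TMM factor, its share of reads not uniquely aligned and the summed CPM of 4 gene lists (horizontal axes), with digits for the replicate and colours for the group. IMQ-treated WT replicate 3 and IMQ-treated *Bmal1 Mye-/-* replicates 1 and 5 lie at the top in each panel, with the lowest neutrophil sums and the highest mitosis sums.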

How the data were processed

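The 20 libraries of bone marrow neutrophils were assigned to genotype and treatment from their labels. The deposited files hold whole-number read counts per gene, raw and not normalized, with 5 summary lines that were left out of library sizes. Poly(A) libraries were made by the authors. The submitters' processing notes name STAR 2.7.8a, HTSeq 2.0.1 and mm10, whereas the study's methods name another aligner for RPKM values that were not used here, and the annotation and strand setting are not given in the sources used here. Which library ran on which of the study's sequencers is not given either, so no batch was set. A deposited table of all libraries with the authors' own comparisons was not used. Gene positions came from GENCODE M21 on mm10. With opposite-strand exons of other genes 12 members overlap, with same-strand exons 3, and 2 have a named pseudogene, so their counts are less certain.

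Counts were tested with edgeR 4.0.16 in R 4.3.3 (filterByExpr, TMM factors, quasi-likelihood, Benjamini-Hochberg over 14030 genes). Standard errors came from the F statistic. No 2 libraries of a group agreed within sampling noise (chi-square per degree of freedom 18.8 to 748 over 40 pairs), and replicates are separate mice. Counting error is small beside this spread. Same-numbered libraries of untreated and IMQ-treated Bmal1 Mye-/- deviated together in all 5 pairs (correlation of deviations 0.128 to 0.426 over genes). This was the only comparison where all passed 0.1, and a replicate block was an alternative. Libraries of different numbers were not correlated in this way, so these values do not show that the numbers pair mice. Other alternatives were DESeq2 1.42.0, RLE factors, no filter, at least 10 counts in every library, limma 3.58.1 on log2(CPM + 0.1), only the 2 groups compared and each library left out. For limma the CPM used total counts per library without TMM factors, so that setting changed the scaling as well as the test. The block within 2 groups and the removal of both libraries with high TMM factors were chosen after seeing the data. The fit was also run on simulated counts for IMQ-treated against untreated Bmal1 Mye-/-. Genes were drawn independently there, so shifts shared by many genes of a library were not covered.

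The members and lists were chosen with earlier results of these data known. Named with values are the member of highest mean CPM in each role, in each comparison the 3 with the smallest p and both ends of the log2 fold changes, up to 10 called or non-overlapping members by p, and the 2 other replication genes with the smallest p. Other members given a value were chosen after their values were seen.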

Additional observations from a re-analysis of the deposited data

Results flagged for a closer look

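Among the named members (20 genes in 4 groups), 9 of 80 groups held a library whose gap to the next was above Dixon's 95% critical value (0.71 for 5 samples), which chance exceeds in about 1 in 20 groups. The genes share libraries, so the 80 groups are not independent. In IMQ-treated WT, replicate 3 was the high library for 8 genes, at 266 CPM for *Rrm2*, 54.0 for *Cdc45*, 19.8 for *Pola1*, 35.9 for *Gins4*, 157 for *Mcm5*, 31.9 for *Prim2*, 82.1 for *Rpa1* and 132 for *Lig1*. In untreated *Bmal1 Mye-/-*, replicate 4 was low for *Mcm10*, at 6.08 CPM against 9.90 to 10.5 in the other 4.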

How the results depend on the processing

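With IMQ in *Bmal1 Mye-/-* the 24 genes called higher became 10 with limma and 40 with a replicate block in a fit of the 2 groups, and ran from 20 to 34 under the other settings that kept all libraries. A replicate block over all groups gave 28, with all 24 among them. The range without 1 library was 5 to 37, always with 0 lower. In WT the *Rfc2* call was lost, leaving 0, with no filter, limma, the replicate block, a fit of the 2 groups and the block within them, and the count was 0 to 1 without 1 library. Between the IMQ-treated genotypes DESeq2 called 1 lower, leaving out both libraries with TMM factors above 1.1 gave 33 higher, and without 1 library the counts were 0 to 39 higher and 0 to 1 lower, with medians of 0.46 to 1.22. The interaction median was 0.48 to 1.26 without 1 library. The replicate block changed no other count of calls. Pairing by number was only an alternative, and the correlations given under the processing do not establish it. The log2 fold change of *Pole2* in untreated *Bmal1 Mye-/-* against WT ran from −0.0059 to 0.30 without 1 library, and reversed only without untreated WT replicate 4 (−0.0059). The cause of each change was not tested. Of the single-gene values under the alternatives, 665 kept direction and side of the threshold, 27 lost and 5 gained significance. Limma, on CPM without TMM factors, placed the median of all genes at 0.22 between the IMQ-treated genotypes (0.03 by edgeR). In the interaction it was at 0.19 (0.01 by edgeR), and the members' medians by limma were 1.02 in both. With 5 mice a group and these coefficients of variation, the spread between mice and not depth limits the comparisons.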
